A study of Mus musculus with 2 samples.

Results

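The Cyp17a1 locus of mouse chromosome 19 is described here through 3 genes, Cyp17a1, As3mt and Wbp1l, which were taken by name from the basic set of GENCODE vM21. They are 3 of 55413 annotated genes, and 21911 of these are protein-coding. Peaks and footprints were read over the joint span of the 3 genes with 50 kb added on each side, chr19:46549084-46791099 on mm10 (GRCm38), a window of 242.016 kb. The assay is DNase-seq, in which nuclei are treated with DNase I and the cut ends are sequenced, so that open chromatin gives many cuts. A peak is a stretch with many cuts. A footprint is a short protected stretch, in this window mostly inside a peak, such as a bound protein can leave. The tissue was the whole adrenal gland of male B6CASTF1/J mice of 8 to 10 months, an F1 hybrid of C57BL/6J and CAST/EiJ. All material falls in 1 group with 2 biological replicates, each a pool of 6 biosamples and 1 library. Both pools carry 1 donor label, no other tissue or treatment was compared, and the deposited files do not separate the alleles of the hybrid. The values below are therefore given per pool, with mean ± SD over n = 2, and without a test.

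Cyp17a1 encodes the steroid hydroxylase and lyase that turns pregnenolone and progesterone into the precursors of cortisol and of androgens. The human adrenal cortex uses it for cortisol and for adrenal androgens, whereas the adult mouse adrenal makes mainly corticosterone and little Cyp17a1 product; in the mouse the enzyme is best known from Leydig and theca cells of the gonads. As3mt encodes the methyltransferase that converts inorganic arsenic into methylated forms, and Wbp1l encodes a transmembrane adaptor that binds WW domains of ubiquitin ligases.

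The promoters of all 3 genes were open in both pools, meaning that each carried a peak, and 61.9% of protein-coding genes met the same condition. A promoter peak overlaps the interval of 1 kb on either side of an annotated transcription start, and its signal is the authors' value for the peak. Wbp1l had the strongest of the 3, at 11.1 in replicate 1 and 12.5 in replicate 2. As3mt had 2.21 and 2.45, and Cyp17a1 had 0.996 and 1.33. The order of the 3 genes was the same in both pools. Among the 13562 protein-coding genes open in both pools, 95.9% had a mean signal at or below that of Wbp1l (11.8 ± 0.974), 34.4% at or below that of As3mt (2.33 ± 0.175) and 16.8% at or below that of Cyp17a1 (1.17 ± 0.240). The median open promoter had 3.0 in replicate 1 and 4.07 in replicate 2. In whole tissue, a weak signal from opening in few cells and weak opening in many cells cannot be told apart.

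The promoters are printed below because their stretches of 300 bases range from strongly open to without a peak in either pool. Of the 3 genes, Wbp1l and As3mt matched the RefSeq promoter table (GRCm38.p6), which gives 300 bases round each start, and Cyp17a1 did not. Capitals mark bases inside a footprint of both pools. The Wbp1l promoter lies at chr19:46598856-46599155, the promoter of its second start at chr19:46623151-46623450 and the As3mt promoter at chr19:46707208-46707507, all on the plus strand.
Wbp1l promoter: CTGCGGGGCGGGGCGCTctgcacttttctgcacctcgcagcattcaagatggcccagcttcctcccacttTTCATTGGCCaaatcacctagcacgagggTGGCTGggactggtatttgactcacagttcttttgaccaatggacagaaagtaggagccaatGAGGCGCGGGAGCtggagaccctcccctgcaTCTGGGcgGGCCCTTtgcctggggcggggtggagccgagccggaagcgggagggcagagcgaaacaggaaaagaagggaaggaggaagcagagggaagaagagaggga
Wbp1l promoter, second start: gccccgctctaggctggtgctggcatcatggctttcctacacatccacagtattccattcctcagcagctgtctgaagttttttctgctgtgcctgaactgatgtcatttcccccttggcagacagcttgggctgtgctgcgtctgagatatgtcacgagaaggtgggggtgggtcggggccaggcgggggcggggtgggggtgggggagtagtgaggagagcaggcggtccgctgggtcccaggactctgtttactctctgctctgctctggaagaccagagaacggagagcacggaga
As3mt promoter: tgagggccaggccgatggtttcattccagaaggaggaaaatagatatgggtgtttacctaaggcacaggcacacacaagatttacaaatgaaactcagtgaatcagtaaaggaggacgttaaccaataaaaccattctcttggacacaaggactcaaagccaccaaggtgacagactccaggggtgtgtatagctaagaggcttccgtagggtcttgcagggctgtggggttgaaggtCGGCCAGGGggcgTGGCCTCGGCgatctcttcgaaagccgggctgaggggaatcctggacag
The Wbp1l promoter held 59 bases that lay in a footprint of both pools, the As3mt promoter 19, and the second Wbp1l start 0. The leading run of capitals in the Wbp1l promoter holds GGGCGG, the core of the SP and KLF motif, at chr19:46598861-46598866. The next run holds CCAAT, the NFY motif, on the minus strand at chr19:46598929-46598933. GC content was close at the open start of Wbp1l (60.0%) and at its second start (59.7%). Their ratios of observed to expected CpG were 0.499 and 0.388. As3mt had a GC content of 52.0% and a CpG ratio of 0.463.

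**Figure D1:**
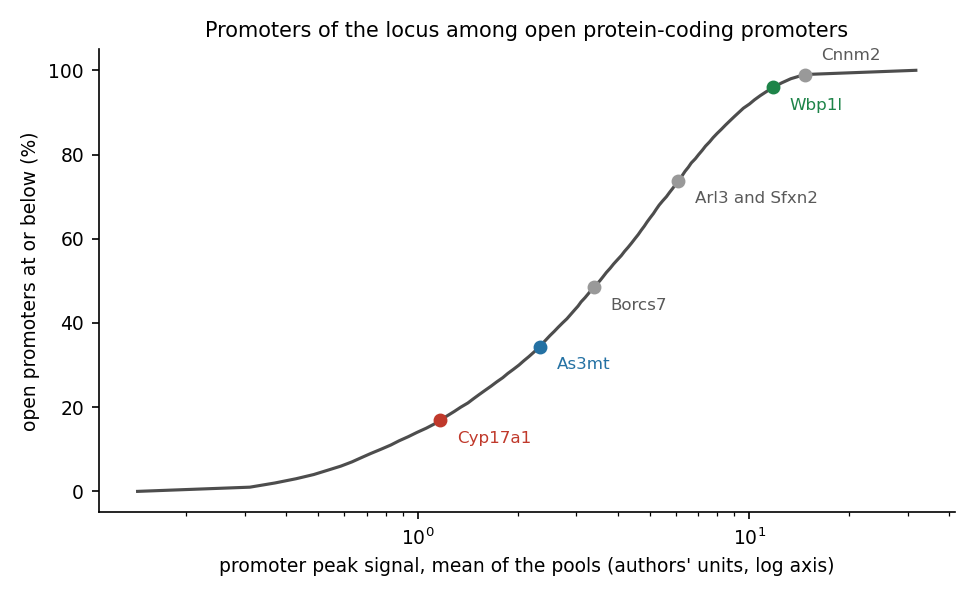
Promoter peak signal (x axis, mean of the pools in the authors' units, log axis) against the percentage of the 13562 open protein-coding promoters at or below it (y axis). The curve is the distribution over those promoters and the points are genes of the window. Cyp17a1 sits at 16.8%, As3mt at 34.4% and Wbp1l at 95.9%.

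Cyp17a1 (ENSMUSG00000003555.8, chr19:46667165-46673172, minus strand) held 2 open regions, and both were found in each pool. The stronger covered the promoter at chr19:46672921-46673198. The peak of replicate 1 ran over chr19:46672941-46673198, 258 bp, and covered both annotated starts, at 46672974 and 46673172. The peak of replicate 2 ran over chr19:46672921-46673160, 240 bp, and covered the start at 46672974 alone. Within its own pool this peak had more signal than or as much as 66.3% of peaks in replicate 1 and 73.7% in replicate 2, so the promoter was weak among open promoters while above the median among all peaks. The smallest false discovery rate (FDR) in the authors' table of cleavage rates was 9.43e-05 in replicate 1 and 4.52e-06 in replicate 2. Both peaks were also in the shorter list that the authors deposited for each pool.

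The Cyp17a1 promoter peak held 3 footprints in each pool, and all 3 overlapped between the pools. Replicate 1 had them at chr19:46672976-46672983, chr19:46673051-46673064 and chr19:46673131-46673137. Replicate 2 had them at chr19:46672979-46672995, chr19:46673050-46673062 and chr19:46673131-46673137, so the last had the same ends in both pools. Across the genome, 51.1% of the footprints of replicate 1 and 42.6% of those of replicate 2 overlapped a footprint of the other pool.

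The inner region of Cyp17a1 lay at chr19:46670761-46671039, with its midpoint 2074 bp past the start at 46672974, in the intron between exons 2 and 3. It overlapped exon 2 by 83 bp and exon 3 by 7 bp. Its signal was 0.929 in replicate 1 and 0.967 in replicate 2 (0.948 ± 0.0271), and its smallest FDR was 0.000721 in replicate 1 and 0.00179 in replicate 2. It was in the shorter list of neither pool. Each pool had 1 footprint there, at chr19:46670898-46670906 in replicate 1 and at chr19:46670857-46670875 in replicate 2, and these did not overlap. The region is printed on the minus strand, the strand of the gene, because it is the only open region inside Cyp17a1 away from its promoter. Capitals mark the footprint of either pool, that of replicate 1 standing to the left.
Cyp17a1 inner region: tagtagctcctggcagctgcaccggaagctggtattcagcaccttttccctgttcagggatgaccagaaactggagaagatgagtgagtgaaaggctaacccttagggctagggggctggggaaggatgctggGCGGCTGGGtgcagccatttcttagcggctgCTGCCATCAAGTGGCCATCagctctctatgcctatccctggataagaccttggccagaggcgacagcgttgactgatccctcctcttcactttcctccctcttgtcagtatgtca
In this stretch GGGCGG, or its reverse complement, was found once, at chr19:46670903-46670908, overlapping the footprint of replicate 1 and no footprint of replicate 2. CAGCTG, the E-box searched, lay at chr19:46671021-46671026 outside the footprints of both pools.

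**Figure D2:**
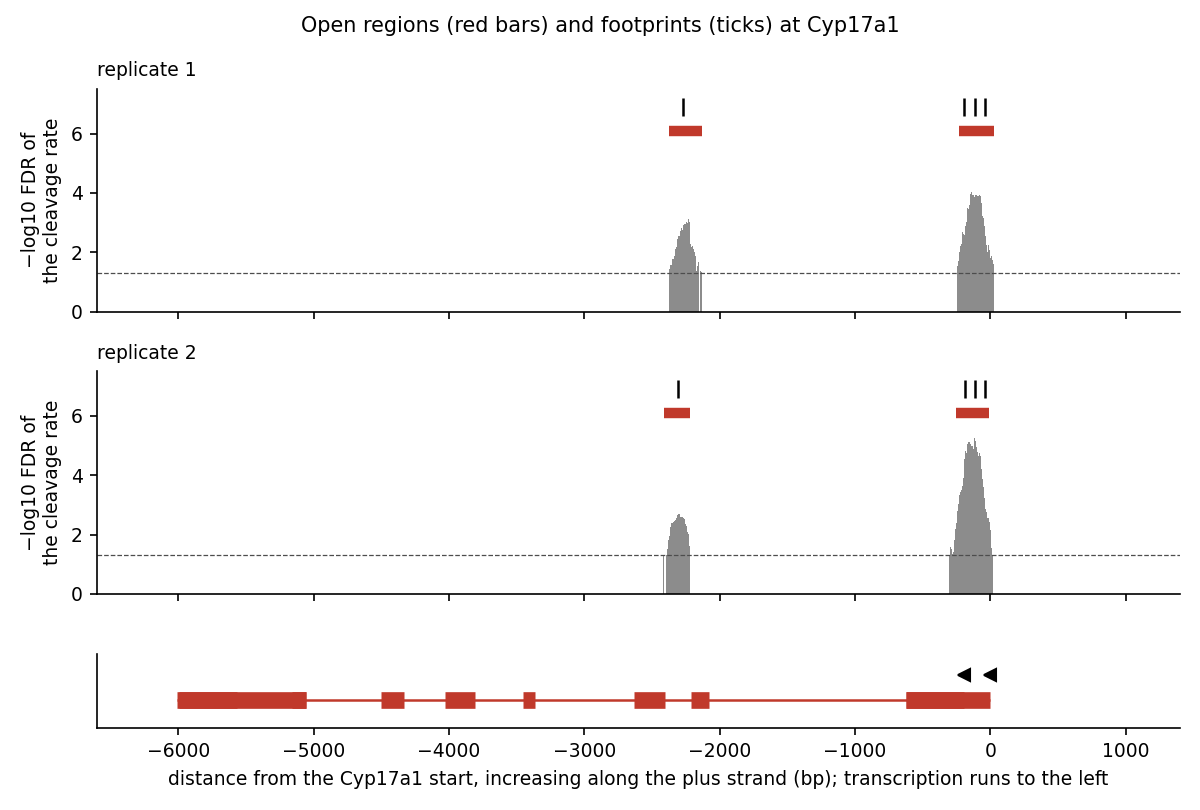
Cyp17a1 in both pools, with the position relative to its outermost start along the plus strand (x axis, bp) and minus log10 of the authors' FDR of the cleavage rate (y axis). Grey fills are intervals with a listed FDR, the dashed line is an FDR of 0.05, red bars are peaks, ticks are footprints, red boxes below are exons and triangles are the annotated starts. Both pools show 2 peaks, with 3 footprints at the promoter and 1 inside the gene.

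The 2 Cyp17a1 regions stood between stretches with no region shared by the pools. That toward Wbp1l was 17.3 kb long (chr19:46653494-46670760) and that toward Borcs7 16.6 kb (chr19:46673199-46689800). The median gap between shared regions on the autosomes was 9.10 kb, and 34.7% and 35.7% of gaps were at least as long as these, so such gaps were common. Repeats covered 16.7% of the gap toward Wbp1l and 43.6% of that toward Borcs7. Replicate 1 had no base under an FDR of 0.05 in the gap toward Wbp1l, and replicate 2 had 1636 such bases with 4 footprints.

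All but 1 of these bases of replicate 2 belonged to AC156982.1, an annotated lincRNA gene between Wbp1l and Cyp17a1 (chr19:46658967-46666126, minus strand). Replicate 1 had no peak and no base under an FDR of 0.05 within the gene. Replicate 2 had 3 peaks there and such bases over 22.8% of its length, against 7.99% of the length of Cyp17a1 in the same pool. Their signals were low, 0.240 at chr19:46659741-46660080, 0.432 at chr19:46660261-46660680 and 0.248 at chr19:46660881-46661200. Their smallest FDRs were 1.05e-08, 2.43e-21 and 3.93e-09, all below the 4.52e-06 of the Cyp17a1 promoter, whose signal in that pool was 1.33. Set against the Cyp17a1 promoter, these peaks were thus lower in signal and had smaller FDRs, while among the 3 of them more signal went with a smaller FDR. Gm6967, a processed pseudogene on the other side of Cyp17a1 (chr19:46674273-46675279, minus strand), had no peak in either pool.

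Wbp1l (ENSMUSG00000047731.17, chr19:46599084-46657389, plus strand) held more of the shared open regions of the window than any other gene. Of the 35 regions shared by the pools, 14 had their midpoint inside the gene, against 7 in As3mt and 2 in Cyp17a1. The gene is also the longest of the 3, and per 10 kb of gene 2.57 shared regions overlapped Wbp1l, 2.08 As3mt and 3.33 Cyp17a1. The promoter region at chr19:46598821-46599140 covered the starts at 46599084 and 46599114, held 7 footprints in each pool, and had a smallest FDR of 1.91e-90 in replicate 1 and 8.34e-64 in replicate 2. A weaker region at chr19:46599901-46600195 also lay within 1 kb of that start, with 0.810 in replicate 1 and 0.855 in replicate 2. The start at 46623401 had no region shared by the pools within 1 kb. Replicate 1 alone had a peak of 0.699 at chr19:46624277-46624368, 921 bp past it.

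The strongest region within the body of Wbp1l was intronic, at chr19:46628441-46628680, 5159 bp past the start at 46623401. Its signal was 3.74 in replicate 1 and 4.29 in replicate 2 (4.02 ± 0.392) and 5 footprints in each pool. This is above the As3mt and Cyp17a1 promoters in both pools. Its sequence on the plus strand is shown because no other region inside the 3 genes, the Wbp1l promoter apart, had as much signal; capitals mark bases in a footprint of both pools.
Wbp1l intron region: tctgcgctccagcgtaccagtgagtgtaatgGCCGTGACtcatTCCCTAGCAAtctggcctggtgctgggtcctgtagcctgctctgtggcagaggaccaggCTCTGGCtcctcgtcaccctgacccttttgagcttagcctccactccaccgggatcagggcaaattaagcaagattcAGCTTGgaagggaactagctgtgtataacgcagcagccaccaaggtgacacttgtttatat
TGANTCA, the AP-1 motif, lay at chr19:46628476-46628482 and overlapped a footprint in each pool. The other intronic regions of Wbp1l were weaker. Next came chr19:46641761-46641980 with 2.25 in replicate 1 and 3.10 in replicate 2, then chr19:46602481-46602760 with 1.83 and 2.76, and chr19:46600441-46600680 with 2.06 and 2.09. Over the 13 regions of the gene body away from the promoter class, the mean signal ranged between 0.870 and 4.02.

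As3mt (ENSMUSG00000003559.8, chr19:46707458-46741099, plus strand) held 7 shared regions. The promoter region at chr19:46707361-46707600 had a smallest FDR of 6.76e-21 in replicate 1 and 2.86e-15 in replicate 2, with 3 footprints in replicate 1 and 2 in replicate 2. The second annotated start, at 46707968, had a region of its own at chr19:46707761-46708180, with 1.15 in replicate 1 and 1.40 in replicate 2. This As3mt start was thus open in both pools, unlike the Wbp1l start at 46623401. These starts are not alike, since the As3mt start lies within 1 kb of another open start and the Wbp1l start does not. The strongest region of the gene body lay on an exon at chr19:46715101-46715400. Its signal was 1.88 in replicate 1 and 1.61 in replicate 2 (1.75 ± 0.188). The other 4 regions away from the promoter had mean signals between 0.815 and 1.15. One of these, at chr19:46718229-46718453, had 0.981 in replicate 1 and 1.11 in replicate 2 and held a TGANTCA match in a footprint of both pools, at chr19:46718340-46718346. The last lay in the 3′ exon at chr19:46740701-46740900, with 0.840 in replicate 1 and 1.46 in replicate 2.

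**Figure D3:**
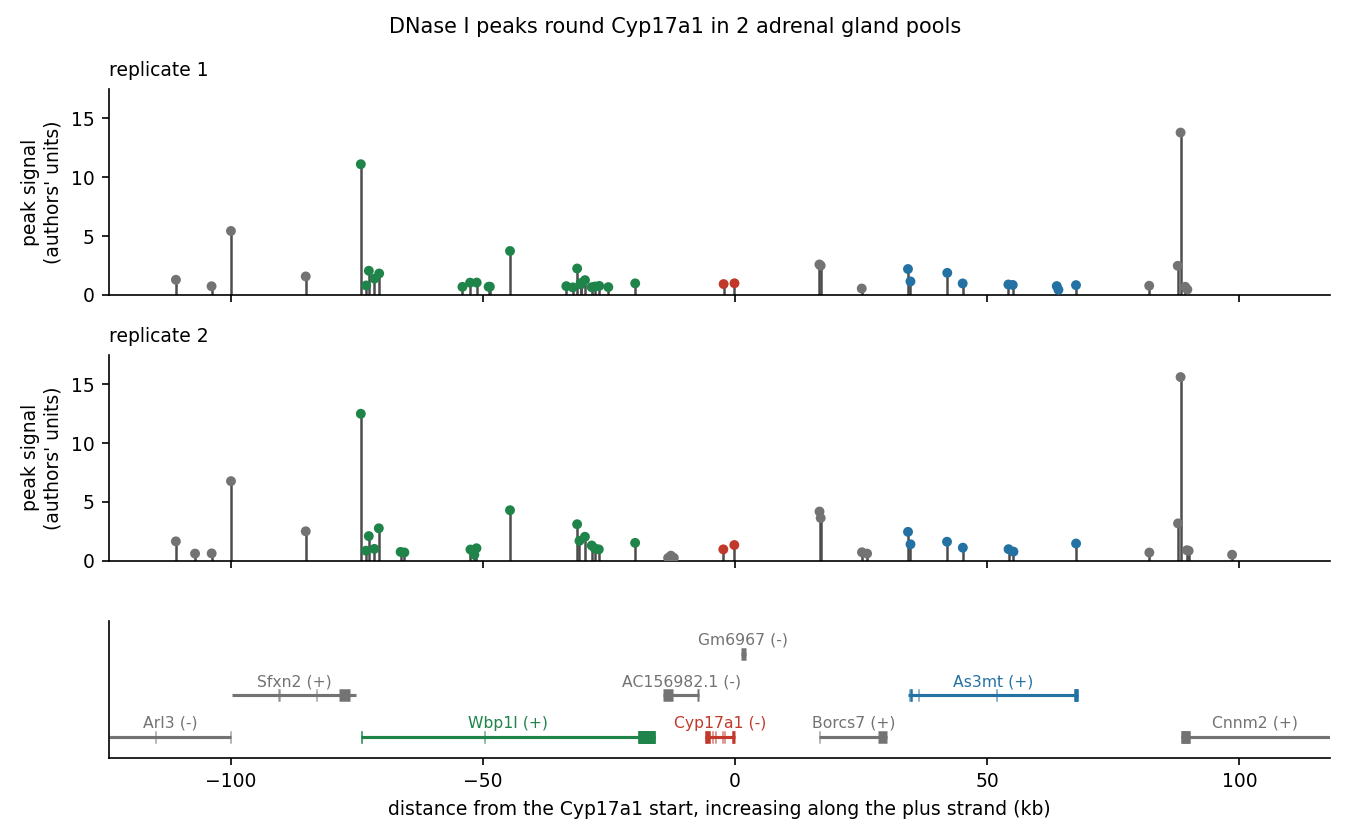
Peak signal in the authors' units (y axis) by distance from the outermost Cyp17a1 start along the plus strand (x axis, kb), with replicate 1 above replicate 2. Each stem is 1 peak, coloured where it lies within or at the promoter of Wbp1l (green), Cyp17a1 (red) or As3mt (blue), and thick boxes in the gene track are exons. Wbp1l and Cnnm2 have the tallest stems, 11.1 and 13.8 in replicate 1, and the Cyp17a1 stems of 0.996 and 0.929 stand alone between gaps.

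The window as a whole was rich in open chromatin. Each pool had 45 peaks there, which is 18.6 peaks per 100 kb in either pool, against 4.63 on the autosomes in replicate 1 and 5.77 in replicate 2. The ratio to the autosomes was 4.02 in replicate 1 and 3.22 in replicate 2. Of 10165 autosomal windows of the same length, 0.836% had at least 45 peaks in replicate 1 and 1.94% in replicate 2. The window holds 15 distinct annotated starts. Among the 1326 autosomal windows with at least as many starts, the median was 21 peaks in replicate 1 and 25 in replicate 2, and 4.75% and 9.35% had at least 45. Bases under an FDR of 0.05 made up 5.36% of the window in replicate 1 and 6.73% in replicate 2, against 1.46% and 1.95% of the autosomes. For the genes alone the shares were 9.26% and 8.57% of Wbp1l, 6.78% and 6.90% of As3mt, and 8.07% and 7.99% of Cyp17a1.

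The neighbouring genes supplied 3 of the 5 strongest shared regions. The strongest of all, at chr19:46761421-46761620, was the promoter of Cnnm2, a gene of magnesium transport, with 13.8 in replicate 1 and 15.6 in replicate 2; 99.0% of open promoters had a mean at or below it. The Wbp1l promoter was next. The region at chr19:46573021-46573460 is the shared promoter of Arl3, a small GTPase gene of the cilium, and Sfxn2, a gene of the mitochondrial sideroflexin family, which are read in opposite directions, and had 5.44 and 6.76. The Wbp1l intronic region followed. Borcs7, a subunit gene of the BORC complex that positions lysosomes, had 2.59 and 4.18 at chr19:46689801-46690020. Within the window, the Cyp17a1 promoter was the weakest of the protein-coding genes in both pools.

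Most regions of the window, and about as many footprints as elsewhere, were found in both pools. The merged peaks formed 52 regions, of which 35 were found in both pools, 8 in replicate 1 alone and 9 in replicate 2 alone. The regions of 1 pool were weak, with signals between 0.438 and 0.758 in replicate 1 and between 0.240 and 0.751 in replicate 2. The strongest of them were chr19:46736861-46737080 in an As3mt intron in replicate 1 and chr19:46606802-46606935 in a Wbp1l intron in replicate 2. Of the 8 in replicate 1, 6 lay in Wbp1l (58306 bp) and 2 in As3mt (33642 bp). Of the 9 in replicate 2, 3 lay in Wbp1l and 3 in AC156982.1 (7160 bp). None of the regions found in 1 pool lay in Cyp17a1, but at 6008 bp the gene is too short for this to describe it. By place, 10 shared regions lay at promoters, 3 in exons, 21 in introns and 1 between genes. The log2 ratio of replicate 1 to replicate 2 had a median of -0.31 in the window and -0.35 over all 96584 shared regions (SD 0.37), and 26 of the 35 lay within 1 SD of the median over all regions, against 71.2% of all. It was -0.42 at the Cyp17a1 promoter and -0.06 at its inner region. The extremes were both in Wbp1l introns, -0.97 at chr19:46644654-46644863 with 0.661 in replicate 1 and 1.30 in replicate 2, and 0.46 at chr19:46601561-46601820 with 1.39 and 1.01. The window had 99 footprints in replicate 1 and 113 in replicate 2, of which 56.6% and 46.0% overlapped a footprint of the other pool. Of the same footprints, 89 in replicate 1 and 95 in replicate 2 overlapped a peak of their own pool, and the others lay outside its peaks. All 35 shared regions held a footprint in at least 1 pool, and 33 did so in both. The share with a footprint over all shared regions was not computed, nor was the share of all merged regions found in both pools. Whether these counts are usual or particular to the window is therefore not known.

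**Figure D4:**
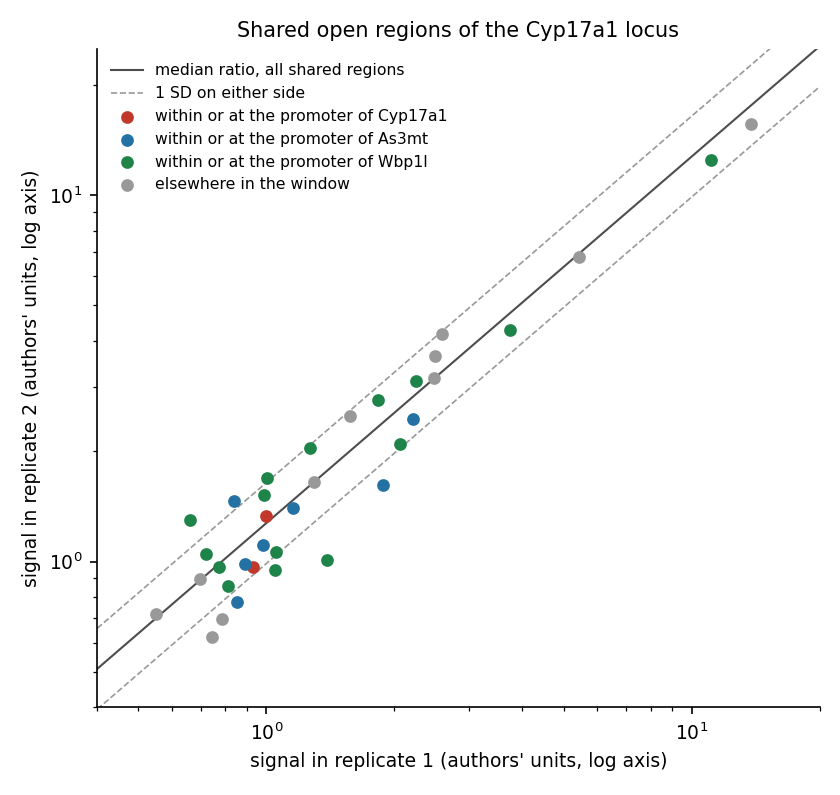
Signal of the 35 shared regions of the window in replicate 1 (x axis) and replicate 2 (y axis), in the authors' units on log axes, coloured by gene. The solid line is the median ratio of all 96584 shared regions and the dashed lines are 1 SD on either side. Of the 35 points, 29 were higher in replicate 2, among them both Cyp17a1 regions.

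Open regions near each gene were counted at a wide and a narrow distance. Counting shared regions over 1 kb from every start and within 50 kb of a start of the gene, Wbp1l had 17, Cyp17a1 12 and As3mt 8, against a median of 4 over all protein-coding genes. At least as many were found for 0.780% of genes in the case of Wbp1l, 3.98% for Cyp17a1 and 15.9% for As3mt. These counts overlap, because 1 region is counted for every gene within 50 kb, and of the 12 counted for Cyp17a1, 8 lay in Wbp1l, 2 in As3mt, 1 in Borcs7 and 1, the inner region, in Cyp17a1 itself. Within 10 kb of a start, all classes counted, Wbp1l had 8 shared regions, As3mt 4 and Cyp17a1 2. The median over the 28 steroid pathway genes described next was 3, so Cyp17a1 was close to it. At 50 kb their median was 8, against the 12 of Cyp17a1, with 20 for Fdxr, 18 for Hsd3b1, 15 for Star and 14 for Cyp11a1. Within 10 kb these genes ranged between 0 for Cyp11b2 and Sult2a1 and 14 for Cyp21a1 and Fdxr, with 13 for Star, 3 for Por and 1 for Cyb5a.

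Set among 28 genes of steroid synthesis and its control, Cyp17a1 was near the low end. Of these, 21 were open at the promoter in both pools, which is 75%, against 61.9% of protein-coding genes. The Cyp17a1 promoter was the fourth from the lowest of the 21. Below it stood Hsd3b6, a hydroxysteroid dehydrogenase isoform, with 0.639 in replicate 1 and 0.967 in replicate 2, the transcription factor gene Gata4 with 0.580 and 0.663, and Cyp19a1, the aromatase gene, with 0.431 and 0.488. Just above it was Papss2, which makes the sulfate donor for steroid sulfation, with 1.17 and 1.72. The median member of the 21 lay at the 66.7 percentile of open promoters.

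The electron donors and cofactors that the Cyp17a1 enzyme needs had strong promoters. Por, the reductase that passes electrons to microsomal cytochromes P450, had 14.4 in replicate 1 and 16.3 in replicate 2, at or above 99.2% of open promoters. Cyb5a, the cytochrome b5 that favours the lyase reaction, had 9.54 and 10.5. Both genes serve many enzymes besides Cyp17a1. Several genes of the corticosterone route stood between. Star, which brings cholesterol into mitochondria, had 5.44 and 6.52, and Cyp11a1, the side-chain cleavage enzyme gene, 4.45 and 5.20. Cyp21a1, the 21-hydroxylase gene, had 5.27 and 4.72, and Cyp11b1, the 11β-hydroxylase gene, 3.47 and 4.01. Nr5a1, which encodes the transcription factor SF-1 of steroidogenic cells, had 2.55 and 3.36. Each of these exceeded Cyp17a1 in both pools. Hsd3b1, also of the corticosterone route, had no promoter peak in either pool. Nor was one found for Hsd3b2, Cyp11b2, Hsd17b1, Hsd17b3 and Sult2a1, and Nr0b1 had one of 0.328 in replicate 2 alone. Hsd3b1, Cyp11b2 and Cyp21a1 belong to families with near-identical copies, and the part of read mapping in their values was not tested.

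**Figure D5:**
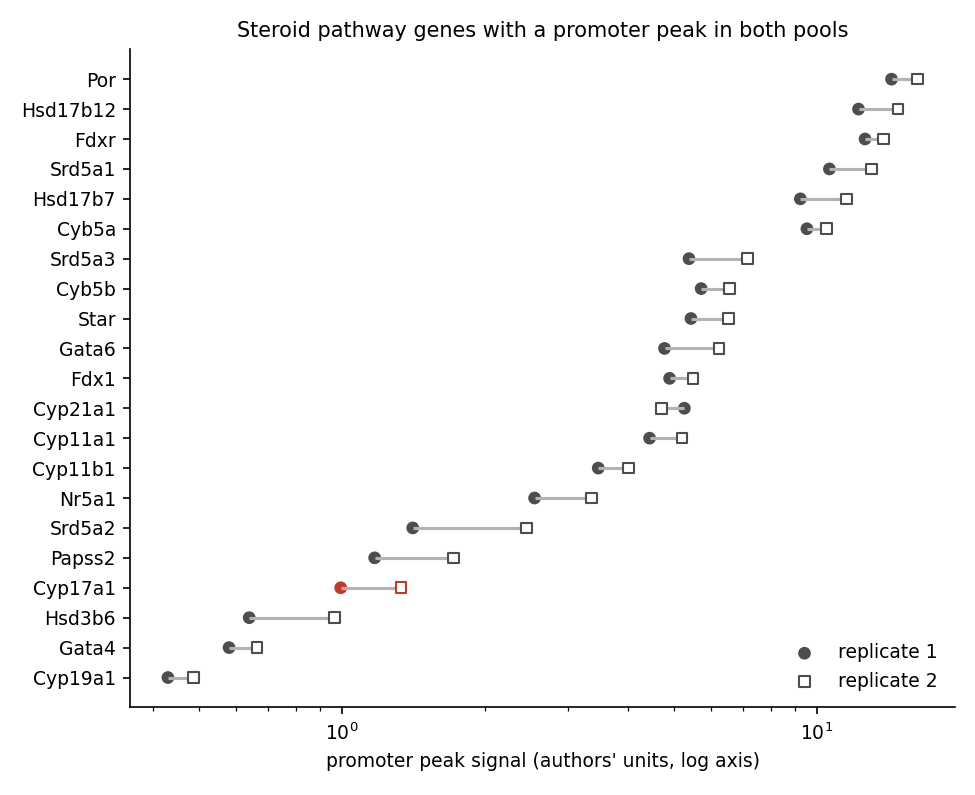
Promoter peak signal (x axis, authors' units, log axis) of the 21 steroid pathway genes open in both pools, ordered by mean. Filled circles are replicate 1, open squares replicate 2 and Cyp17a1 is red. Cyp17a1, at 0.996 and 1.33, is above Hsd3b6, Gata4 and Cyp19a1 and below the other 17 genes by mean.

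The label adrenal gland was checked against marker genes. Promoters were open in both pools for 7 of 8 genes of the adrenal cortex, 5 of 6 of chromaffin cells, 2 of 3 of endothelium, 1 of 4 of hepatocytes and 1 of 4 of Leydig and theca cells, against 61.9% of protein-coding genes. Hsd3b1 was the cortical gene without one, and Pnmt had a peak in replicate 2 alone (0.695). On the Leydig and theca list, Hsd3b6 had a peak in both pools, Lhcgr a peak of 0.168 in replicate 2 alone, and Insl3 and Hsd17b3 none. Whether Hsd3b6 is particular to gonadal cells was not tested. The part of any other cell type in the Cyp17a1 peaks was not tested. The protein-coding genes nearest to Cyp17a1 by promoter signal in both pools were Ryk, with the same values, and Fsd1l and Dennd2a, each 0.01 away on the log2 scale; 85 genes lay within 0.1, so the signal of Cyp17a1 was a common one.

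Sequence motifs were searched on both strands of the 35 shared regions, as a description of the letters and not of binding. CAAGGTCA, the NR5A1 motif, was found in 4 of the 35, or 11.4% (exact 95% binomial interval 3.20% to 26.7%, which covers counting error only), against 6.67% of all shared regions. In 151 bp round each midpoint, which makes lengths equal, the shares were 8.57% and 5.16%, and 1.56% of RefSeq promoters of equal length held it. Of the 4 matches, 1 lay in an Arl3 intron and 3 in Wbp1l introns. The matches at chr19:46621929-46621936 and chr19:46641891-46641898, both on the minus strand, overlapped a footprint in each pool. The regions round these 2 matches are printed on the minus strand with the match in capitals. Region A, chr19:46621841-46622060, had 1.06 in both replicates, and region B, chr19:46641761-46641980, had 2.25 in replicate 1 and 3.10 in replicate 2. In region B the footprint of replicate 2, chr19:46641871-46641894, covered only part of the match. Other motifs overlapped the same footprints in both pools, GGGCGG at chr19:46641878-46641883 in region B and CAGCTG at chr19:46621942-46621947 in region A. Which motif a footprint belongs to was not tested.
Wbp1l NR5A1 region A: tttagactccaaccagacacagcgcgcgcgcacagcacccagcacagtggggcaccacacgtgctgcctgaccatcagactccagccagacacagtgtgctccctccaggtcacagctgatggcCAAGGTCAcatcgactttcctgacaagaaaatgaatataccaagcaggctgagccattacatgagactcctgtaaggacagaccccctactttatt
Wbp1l NR5A1 region B: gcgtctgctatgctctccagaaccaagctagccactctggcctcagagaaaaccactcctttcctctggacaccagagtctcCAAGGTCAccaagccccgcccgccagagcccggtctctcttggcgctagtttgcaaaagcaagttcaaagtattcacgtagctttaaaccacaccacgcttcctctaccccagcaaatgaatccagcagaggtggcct
The other motifs searched were found in 0 to 12 of the 35 regions. TGANTCA was found in 8 of 35 regions (22.9%, against 23.5% of all shared regions), GGGCGG in 7 (20%, against 19.9%), TTGGCA, part of the NFI motif, in 8 (22.9%, against 20.1%) and CCAAT in 12 (34.3%, against 28.9%). AAAGGTCA, the NR4A motif, which shares AAGGTCA with the NR5A1 motif, was found in 2 (5.71%, against 3.09%). TATAAA, the TATA motif, was found in 1 region (2.86%, against 7.92%), as were the MEF2 motif (against 0.673%) and the glucocorticoid receptor motif (against 1.28%). AGATAA, the GATA motif, was found in 6 (17.1%, against 12.7%) and CAGCTG in 5 (14.3%, against 19.6%). TGACGTCA, the CRE motif, was found in 0 (against 1.16%). In 151 bp round each midpoint, TGANTCA had a share of 11.4%, against 18.9% of all shared regions. With 35 regions, a count of 1 has an exact 95% binomial interval of 0.0723% to 14.9% and a count of 8 one of 10.4% to 40.1%. Of 10 TGANTCA matches 4 overlapped a footprint in both pools, as did 10 of 15 GGGCGG matches and 2 of 17 CCAAT matches. Most of those GGGCGG matches lay in a single region, the shared promoter of Arl3 and Sfxn2. The shares of matches in footprints over all shared regions were not computed, so the motifs are not compared by these counts.

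The CTCF motif was found in 2 of the 35 regions (5.71%, against 4.86% of all shared regions), and both matches overlapped a footprint in each pool. Their places relative to the 3 genes are the reason for showing them. Site A lay in an Sfxn2 intron, at chr19:46588044-46588055 on the plus strand, 11.0 kb before Wbp1l begins. Site B lay in the last exon of As3mt, at chr19:46740790-46740801 on the minus strand, 298 bp before the gene ends. The sites were 153 kb apart and on opposite strands, with all 3 genes between them except the last bases of As3mt. Each is printed on its own strand, with the match in capitals, within chr19:46588035-46588064 and chr19:46740781-46740810.
CTCF site A: gcacagtgaCCACCAGAGGGCagcagagtt
CTCF site B: tacttctgaCCACTAGGTGGCaccagaact
The footprints over site A ran over chr19:46588039-46588065 in replicate 1 and chr19:46588039-46588070 in replicate 2, and those over site B over chr19:46740786-46740806 and chr19:46740782-46740808. The region of site A had 1.58 in replicate 1 and 2.5 in replicate 2.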

How the data were processed

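DNase-seq of 2 adrenal gland pools, each 1 library, was analysed from the deposited files, all on mm10 per the labels. Per the readme texts deposited with them, peaks and footprints were made by the authors from the filtered alignments of 1 library. The aligner and the callers, thresholds included, are not named: not given in the sources used here. The authors' signal of each peak (longer of 2 lists per pool) was used as deposited. Its scaling is not stated and the depth is unknown, so no interval for a signal is given. All signals were whole multiples of a step, 0.00743 in replicate 1 and 0.00799 in replicate 2 (100% within 0.05 of a step), and the Cyp17a1 promoter peak had 134 and 167 steps. The deposited table of FDR values, p-values adjusted by the authors, lists only intervals under 0.05. Footprints carry 1 constant p-value, 0.01, per the file columns and were not ranked.

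Peaks overlapping by 1 bp or more were counted as overlapping, and shared regions are merged peaks holding a peak of each pool. The steps were tested on simulated data and run with Python 3.11.15, numpy 2.4.6, pandas 2.3.3 and scipy 1.17.1. Genes named are the 3 members, all genes of the window, the steroid and marker lists, and the 3 genes nearest to Cyp17a1 by log2 promoter signal. Regions named are those at the members' promoters, the 5 strongest shared, the strongest in each member and in 1 pool alone; Wbp1l and As3mt regions beyond these, those with motif matches and the extremes of the pool ratio were chosen after their values were seen. The members and lists were chosen with earlier results of these data known. The replicates are pools, so their spread is not that between animals. Sequences are from RefSeq (GRCm38.p6), and motif matches counted as in a footprint overlap it by at least 1 bp. The printed letters and the matches are those of this reference alone, and sequence differences between the alleles of the hybrid were not examined. Alternatives changed the peak list, the signal or FDR minimum, the overlap, the flank, the promoter width and the pools used.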

Additional observations from a re-analysis of the deposited data

How the results depend on the processing

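The promoter signals of Cyp17a1, As3mt and Wbp1l were the same with the shorter peak lists, with promoters of 500 bp or 2 kb, and with the gene record's start alone. Of 71 alternative values over 11 results, 54 stayed within the limits set and 17 moved. The limit was a fixed factor for counts, and the SD between the pools for signals, the density ratio and the share of genes. Dropping 1 pool cannot move a mean of the pools beyond that SD. Without the alternatives that drop a pool, 33 of 49 stayed within the limits. With the shorter lists the window had 28.5 peaks (mean of the pools) in place of 45, 21 shared regions in place of 35, and 2 with CAAGGTCA in place of 4. With 100 kb on each side it had 79 peaks, 53 shared regions, 194 footprints and 27251 bases under an FDR of 0.05, against 106 footprints and 14633 bases, and a peak density 4.41 times that of the autosomes in place of 3.62. With the 50% strongest peaks this ratio was 5.72. Footprints overlapping the other pool numbered 54, and 8592.5 bases had an FDR of 0.001 or lower. The share of genes with a promoter peak in both pools, 61.9%, was 56.7% with the shorter lists, 55.0% with the 50% strongest peaks, 60.0% with 500 bp, 64.5% with 2 kb, 58.8% with the gene record's start, and 62.9% to 65.3% with 1 pool. No paired analysis was possible because the labels give 1 group. With 2 pools, differences between them carry no test, and weak peaks found in 1 pool cannot be called absent from the other.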

Other observations

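Beyond the window, the 50 kb on the Arl3 side (chr19:46499084-46549083), which hold Trim8 and part of Arl3, differed between the pools. Replicate 1 had 12 peaks there with a median signal of 2.00, and replicate 2 had 38 with a median of 0.663. The pools shared 10 regions, 1 was found in replicate 1 alone and 25 in replicate 2 alone. Those 25 lay within chr19:46511901-46533280, with a median signal of 0.592 and a highest of 1.03. The 50 kb on the Cnnm2 side had 8 peaks in replicate 1 and 10 in replicate 2, with 8 shared regions. This stretch and the AC156982.1 peaks were chosen after their values were seen. In the window, the 3 peaks of replicate 2 with a signal under 0.5 were those of AC156982.1, with FDRs between 2.43e-21 and 1.05e-08. Replicate 1 had 2 such peaks, with FDRs of 0.0195 and 0.0245.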
